A study of Mus musculus with 6 samples.

Results

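The nuclear genes of respiratory complexes III, IV and V and of cytochrome c were taken from the gene count table by symbol: protein-coding genes outside the mitochondrial genome whose symbol begins with Uqcr, with Cox followed by 4, 5, 6, 7 or 8, or with Atp5, together with Cyc1 and Cycs. Pseudogenes were left out. This gave 42 of the 28564 genes in the table: 9 of complex III, 15 of complex IV, 17 of complex V (ATP synthase) and Cycs. The rule itself used symbols and no measured value, but it was set with earlier results of these data known. The RNA came from small intestinal crypt epithelium of male mice of 13 weeks, sorted as live EpCAM+ CD44+ cells without CD31 and CD45. The groups were 3 wild-type libraries (C57Bl/6) and 3 libraries from Apln-/- mice, which lack the gene of the secreted peptide apelin. The labels name no treatment and no other allele, give neither the deleted part of Apln nor the background strain of the knockout mice, and do not say whether a library holds 1 animal or a pool. Knockout libraries are numbered 1, 2 and 3 as in the sample titles, where the sample descriptions number them 1, 3 and 4. The p-values measure the spread between these libraries.

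Complex III takes electrons from ubiquinol and passes them to cytochrome c, a small soluble carrier. Complex IV, cytochrome c oxidase, hands them to oxygen. Both pump protons across the inner mitochondrial membrane, and complex V uses the return of these protons to make ATP. Most subunits are encoded in the nucleus and a few in mitochondrial DNA, so that both genomes contribute to each of these complexes. Crypt stem cells and the Paneth cells beside them are known to differ in their use of mitochondrial respiration.

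Library totals ran from 23046880 to 26513481 counts. With the 5 entries of highest count set aside, 6037237 to 7616648 counts were left in the wild-type and 5144725 to 5623112 in the knockout libraries. The counts of Apln were 29, 7 and 5 in the 3 wild-type libraries and 0 in each knockout library. The epithelial gene Epcam averaged 294 ± 12.9 (wild type) and 309.6 ± 24.6 (knockout) CPM, TMM-scaled counts scaled to a common library size, and the crypt stem cell gene Lgr5 33.02 ± 6.06 and 32.99 ± 6.64 CPM (SD, n = 3 each). The summed level of 11 crypt epithelium genes, both included, was higher in every knockout library (2127 ± 43.6 against 2490.2 ± 139 CPM), with log2 fold changes from -0.59 to 0.56. Of the marker lists for other cells, the summed level of 8 Paneth cell genes was higher in every knockout library (908 ± 215 against 1786 ± 749 CPM). It was lower in every knockout library for 9 enteroendocrine genes (991 ± 136 against 621 ± 106 CPM), 8 tuft cell genes (92.03 ± 16.5 against 43.7 ± 16.9 CPM) and 6 proliferation genes (573 ± 53.9 against 434 ± 33.9 CPM), although the median log2 fold change of the proliferation genes was 0.12. The groups overlapped for 10 enterocyte, 7 goblet, 10 blood cell, 4 endothelial and 8 stroma and muscle genes, and goblet genes stood at 4956 CPM in wild-type library 3 against 1508 to 2411 in the other libraries. The part of these cell types in the results was not tested, and in bulk RNA fewer cells of a type and less RNA per cell cannot be told apart.

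Most of these genes stood higher in the knockout crypt cells, in all 3 complexes, but by less than 2-fold, and no single gene passed the test over the whole table. Of the 40 members that passed the filter on low counts, 37 had a positive log2 fold change, where 49.5% of all 15122 genes tested did. The 3 knockout libraries lay above all 3 wild-type libraries for 20 of the 40, against a background of 11.3% of all genes, and below them for 0 members, against 9.56%. The median log2 fold change, knockout minus wild type, was 0.51 over 9 tested genes of complex III, 0.44 over 13 of complex IV and 0.50 over 17 of complex V. Over all genes tested it was -0.0063. With trends of transcript length and GC content taken out, the medians were 0.33, 0.24 and 0.42. With edgeR's quasi-likelihood test and Benjamini-Hochberg adjustment over all genes, 0 members passed 0.05, while 0.172% of all genes did (26), with 0.112% higher and 0.0595% lower. At an unadjusted p under 0.05 there were 22 members higher, against a background of 7.53%, and 0 lower, against 7.66%. The DESeq2 Wald test called 10 members, all higher, where it called 1.98% of all genes higher. Without wild-type library 3, edgeR called 11, all higher, where it called 1.61% of all genes higher; without any other library it called 0. Cox7a2l, with the lowest adjusted p of the members (0.0517), missed the threshold by little.

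**Figure D1:**
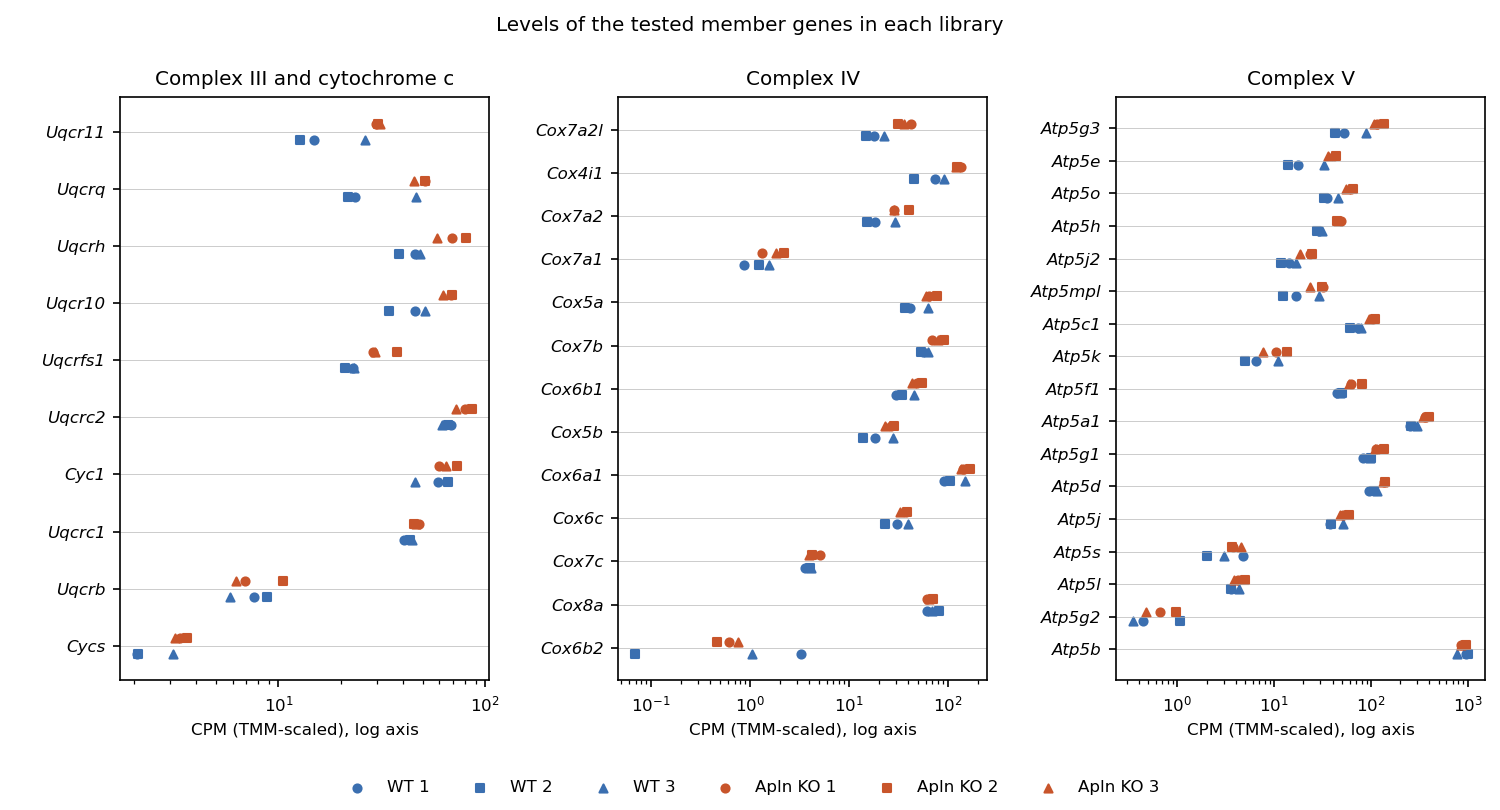
Level of each tested member in each of the 6 libraries (x axis: TMM-scaled CPM, log axis), ordered by fold change within complex III with cytochrome c, complex IV and complex V. Blue points are wild type and orange points Apln knockout, with 1 marker shape per replicate number. The 3 knockout points lie to the right of all wild-type points for 20 of the 40 genes, and Atp5b and Cox8a are among those where they do not.

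The promoters of a few members are shown to let the motifs be seen in place. They were picked with fold changes and motifs known, so that nothing about their relation can be read from them. Nuclear respiratory factor 1 (NRF1), ETS family factors such as GABP, and YY1 are known regulators of respiratory genes. RefSeq promoter windows (GRCm38.p6, from 250 bases before to 50 after the annotated start) were matched for 32 of the 42 members. Cyc1, Uqcrb, Uqcrc2, Uqcrq, Cox4i1, Cox4i2, Cox6a2, Cox6c, Atp5a1 and Atp5mpl were not matched. Windows were searched on both strands for 5 motifs: those of NRF1, ETS factors, YY1 and SP1 and the TATA box. No motif holds another. The sequences below, written 5′ to 3′ along the gene's own strand, are those of 4 genes with a log2 fold change above 0.6, namely Atp5h (chr11:115419870-115420169, minus strand), Atp5o (chr16:91931581-91931880, minus), Atp5g3 (chr2:73911277-73911576, minus) and Uqcrh (chr4:116075021-116075320, minus), and of 2 with a negative one, Atp5b (chr10:128083057-128083356, plus) and Cox8a (chr19:7217567-7217866, minus). Capitals mark every match to any of the 5 motifs.
Atp5h: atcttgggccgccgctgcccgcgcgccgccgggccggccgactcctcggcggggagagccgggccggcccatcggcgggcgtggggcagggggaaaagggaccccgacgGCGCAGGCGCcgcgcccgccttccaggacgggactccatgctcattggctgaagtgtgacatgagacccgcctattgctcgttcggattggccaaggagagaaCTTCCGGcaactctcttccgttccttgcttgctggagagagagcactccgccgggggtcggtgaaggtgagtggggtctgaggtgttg
Atp5o: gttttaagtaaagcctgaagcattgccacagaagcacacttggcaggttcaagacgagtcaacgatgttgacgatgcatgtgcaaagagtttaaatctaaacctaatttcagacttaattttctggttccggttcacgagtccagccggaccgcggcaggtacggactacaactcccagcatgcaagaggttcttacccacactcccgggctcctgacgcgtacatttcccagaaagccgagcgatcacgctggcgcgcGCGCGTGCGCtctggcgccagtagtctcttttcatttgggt
Atp5g3: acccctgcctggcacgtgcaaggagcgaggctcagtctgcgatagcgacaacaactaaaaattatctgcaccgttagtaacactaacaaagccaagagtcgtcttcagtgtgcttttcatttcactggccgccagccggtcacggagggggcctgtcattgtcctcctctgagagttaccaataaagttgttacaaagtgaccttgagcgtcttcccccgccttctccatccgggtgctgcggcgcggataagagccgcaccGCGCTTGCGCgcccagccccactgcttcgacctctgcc
Uqcrh: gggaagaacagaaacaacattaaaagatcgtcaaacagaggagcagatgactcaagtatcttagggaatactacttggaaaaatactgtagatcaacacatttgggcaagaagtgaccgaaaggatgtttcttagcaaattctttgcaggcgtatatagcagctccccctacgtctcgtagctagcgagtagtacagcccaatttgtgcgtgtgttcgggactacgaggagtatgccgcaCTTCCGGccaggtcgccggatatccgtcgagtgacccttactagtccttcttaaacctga
Atp5b: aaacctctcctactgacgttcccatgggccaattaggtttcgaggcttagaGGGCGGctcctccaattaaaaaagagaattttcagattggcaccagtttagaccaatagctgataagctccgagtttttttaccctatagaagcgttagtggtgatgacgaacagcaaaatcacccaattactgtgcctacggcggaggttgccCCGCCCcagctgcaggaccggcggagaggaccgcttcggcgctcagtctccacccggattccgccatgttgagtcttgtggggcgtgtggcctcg
Cox8a: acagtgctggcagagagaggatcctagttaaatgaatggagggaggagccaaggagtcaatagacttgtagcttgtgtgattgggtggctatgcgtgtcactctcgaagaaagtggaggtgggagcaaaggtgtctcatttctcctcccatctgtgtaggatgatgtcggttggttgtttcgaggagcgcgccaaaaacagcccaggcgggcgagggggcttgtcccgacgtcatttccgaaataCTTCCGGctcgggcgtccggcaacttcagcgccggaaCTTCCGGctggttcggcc

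The NRF1 motif stood in the windows of Atp5h, Atp5o and Atp5g3, and the ETS motif in those of Atp5h, Uqcrh and, at 2 places, Cox8a. Atp5b held only the SP1 motif. Other matched members with a log2 fold change of 0.60 or more, Cox7a2l, Atp5e, Uqcr11, Atp5j2, Cox7a2 and Uqcr10, held no NRF1 motif, while Uqcrc1 (0.12) and Atp5g2 (0.18) did. The RefSeq start lay 2997 bases from the 5′ end of the gene in GENCODE M21 for Cox7a2l, 521 for Atp5j2 and 1305 for Atp5g2. For Atp5f1 and Atp5d it lay 836 and 3643 bases away. Which start the counted RNA used was not tested. For members with more than 1 window, the one starting nearest the 5′ end in GENCODE M21 was used. The shares over other genes used the first listed window of each gene, so the choice of window differed. Over the 32 matched members, 7 windows (21.9%) held the NRF1 motif, against 4.78% of all 27025 promoter windows and 10.5% of the 9740 windows of genes tested. Those 7 were in 1 of 5 windows of complex III, 1 of 11 of complex IV and 5 of 15 of complex V. The ETS motif, searched as CCGGAAG, stood in 9 members (28.1%), against 9.12% of all windows and 18.6% of those of genes tested. The YY1 motif, searched as AAGATGGC, stood in 2 members, Atp5f1 and Atp5j2 (6.25% against 2.88% and 4.87%). Only the window of Atp5l held the TATA box, searched as TATAAA (3.13% against 14.2% and 7.56%). For the SP1 motif, searched as GGGCGG, the share was 37.5%, against 35.9% of all windows and 64.1% of those of genes tested. A match is a description of the letters only.

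In complex III, 4 of the 5 small subunits had larger fold changes than the large core subunits, as a description with no test between them. Uqcrh (chromosome 4, 116066965 to 116075071, minus strand of mm10), the acidic hinge protein that binds cytochrome c1, was at 45.6, 38.2 and 48.5 CPM in wild-type libraries 1, 2 and 3 and at 68.9, 80.3 and 58.6 in knockout libraries 1, 2 and 3. The groups did not overlap, and the log2 fold change was 0.65 ± 0.16 (SE; edgeR adjusted p = 0.101). Uqcr10, a small membrane subunit (chromosome 11, 4701973 to 4704342, minus strand), had 45.9, 34.1 and 51.2 CPM in wild type and 67.95, 68.8 and 62.3 in knockout, again without overlap (0.60 ± 0.17, edgeR adjusted p = 0.131). Uqcr11, another small subunit, showed 14.9, 12.7 and 26.1 CPM against 29.7, 30.4 and 30.8. Its groups did not overlap, but wild-type library 3 lay much nearer to the knockout libraries than to the other wild-type ones (0.76 ± 0.23, edgeR adjusted p = 0.162). For Uqcrq the same library, at 46.4 CPM, lay inside the knockout range of 45.3 to 51.2 CPM, while wild-type libraries 1 and 2 were at 23.6 and 21.6 (0.69 ± 0.25). Uqcrb, the fifth small subunit, was the exception among the small ones, with 7.62, 8.82 and 5.80 CPM in wild type and 6.89, 10.5 and 6.24 in knockout and overlapping groups (0.09 ± 0.26).

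The Rieske iron-sulfur protein gene Uqcrfs1, whose product carries electrons from ubiquinol to cytochrome c1, was at 22.8, 20.9 and 23.2 CPM in wild type and 28.6, 37.4 and 29.4 in knockout (0.51 ± 0.16, edgeR adjusted p = 0.165). Its wild-type libraries were close together and all below the knockout ones. The core subunits, which face the matrix, had smaller differences: 0.28 for Uqcrc2 and 0.12 for Uqcrc1 on the log2 scale. Uqcrc1 was at 40.7, 43.2 and 44.3 CPM in wild type and 48.02, 45.1 and 46.3 in knockout, which do not overlap but lie within a narrow range. Cyc1, cytochrome c1, had overlapping groups (59.1, 66.1 and 45.8 against 59.8, 73.3 and 64.4 CPM; 0.21 ± 0.17). Within each library, the 5 small subunits summed to 1.27, 1.06 and 1.67 times the sum of Uqcrc1 and Uqcrc2 in wild-type libraries 1, 2 and 3 and to 1.76, 1.83 and 1.71 times in knockout. The ratio was alike across the knockout libraries and spread widely across the wild-type ones, of which library 3 was closest to the knockout.

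Cycs, which encodes somatic cytochrome c (chromosome 6, 50562563 to 50566538, minus strand), was counted at a low level, 2.06, 2.10 and 3.09 CPM in wild type and 3.33, 3.60 and 3.17 in knockout (0.47 ± 0.32, edgeR adjusted p = 0.536). Annotated copies matched 4 times at 95% identity or more over at least 100 nucleotides of its coding sequence. One of these, Gm10053, matched it over its full length with no difference and held 186 counts, against 427 for Cycs over the 6 libraries. The sources used here do not say how reads that map to several places were treated, so this level is uncertain.

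In complex IV, of the genes that were higher in knockout, the supercomplex factor and the ubiquitous isoform of subunit 4 had the largest fold changes. The subunit 8 gene Cox8a had a small one below 0, and the sparsely counted testis isoform Cox6b2 a larger one. Cox7a2l, known as a factor of supercomplexes that hold complexes III and IV (chromosome 17, 83501918 to 83517330, minus strand), was at 17.8, 14.98 and 22.6 CPM in wild type and at 42.4, 31.3 and 35.9 in knockout. What its protein does in the strains used here was not tested. The lowest knockout library was well above the highest wild-type one. The log2 fold change was 0.98 ± 0.19, or 1.98-fold. Among members that were higher in knockout it had the largest fold change. Cox4i1 (chromosome 8, 120668222 to 120674207, plus strand), the ubiquitous form of the subunit through which ATP regulates the enzyme, had 74.5, 45.04 and 92.3 CPM in wild type and 136, 125 and 121 in knockout (0.85 ± 0.22, edgeR adjusted p = 0.108). The wild-type libraries were spread widely, and the knockout libraries were close together. Exons of Cox4i1 overlap those of Emc8 on the opposite strand, and the strand setting of the counting is not given, so reads of the overlap cannot be assigned. Exons of 13 members overlap an annotated gene in this way or on the same strand, Cox5a, Atp5a1, Atp5d, Atp5f1 and Atp5o among them.

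The other ubiquitous subunits of complex IV, small proteins around the catalytic core made in mitochondria, were between -0.12 (Cox8a) and 0.63 (Cox7a2) on the log2 scale. Cox7b was at 55.99, 53.9 and 62.7 CPM in wild type and 69.7, 90.9 and 79.3 in knockout without overlap (0.48 ± 0.15, edgeR adjusted p = 0.172). For Cox7a2 (18.6, 15.1 and 29.6 against 28.9, 40.3 and 28.8 CPM) and Cox5a (41.1, 37.1 and 63.3 against 64.8, 78.02 and 60.2 CPM), wild-type library 3 lay inside the knockout range and the other wild-type libraries below it. The same held for Cox6a1, the most abundant member of the complex, at 92.5, 104 and 148 CPM in wild type and 142, 168 and 135 in knockout. Cox6b1, which faces the intermembrane space, had 29.7, 34.2 and 45.01 and 49.3, 54.5 and 43.6 CPM (0.44 ± 0.18). Cox8a, a small membrane subunit (chromosome 19, 7215153 to 7217616, minus strand), was at 62.3, 82.1 and 69.9 CPM in wild type and 61.6, 71.5 and 64.1 in knockout, with overlapping groups (-0.12 ± 0.15). Cox5b, Cox6c and Cox7c overlapped as well, at 0.38, 0.21 and 0.18.

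Wild-type library 3 was the highest of the 3 wild-type libraries for 11 of the 13 tested complex IV genes, 6 of 9 in complex III and 12 of 17 in complex V. It was the highest wild-type library for 34.4% of all genes tested. It lay at or above the lowest knockout library for 10 genes of complex IV, 1 of complex III and 4 of complex V. Without it the median of complex IV was 0.63, and without wild-type library 1 it was 0.31. The log2 fold change of Uqcrq was 1.13 without library 3 and 0.48 without wild-type library 2.

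Tissue isoforms of complex IV had few counts. Cox4i2, the lung and hypoxia form of subunit 4, had 12, 2 and 0 counts in wild type and 1, 0 and 0 in knockout, and Cox6a2, the heart and muscle form, 0, 0 and 0 and 0, 1 and 9. Neither passed the filter. The limit set by a library with no count is 3 counts (0.0946 to 0.142 CPM), and it covers counting error only. Cox7a1, the heart and muscle form of subunit 7a, was at 0.873, 1.24 and 1.58 CPM in wild type and 1.31, 2.21 and 1.84 in knockout, far below its ubiquitous partner Cox7a2, and its groups overlapped (0.54 ± 0.46). Cox6b2, the testis form, had 82, 2 and 33 counts in wild type and 13, 10 and 16 in knockout. Most of its wild-type counts came from library 1, so the negative log2 fold change of -1.24 ± 0.90 rests on that library and was 0.11 without it. No protein-coding row with the symbol Cox7b2, Cox8b or Cox8c was found in the gene count table.

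In complex V, 16 of 17 genes had a positive log2 fold change, and the exception was the most abundant one. Atp5b encodes the catalytic beta subunit of the F1 head (chromosome 10, 128083273 to 128090391, plus strand). It was at 954, 1008 and 767 CPM in wild type and 845, 962 and 855 in knockout, a log2 fold change of -0.04 ± 0.16 with overlapping groups. Atp5a1 encodes the alpha subunit, which alternates with beta in the head in equal number, and was at 254, 261 and 301 CPM in wild type and 360.0, 399.7 and 341 in knockout without overlap (0.43 ± 0.15, edgeR adjusted p = 0.206). The ratio of Atp5b to Atp5a1 CPM within a library was 3.76, 3.86 and 2.55 in wild-type libraries 1, 2 and 3 and 2.35, 2.41 and 2.51 in knockout. Wild-type library 3 was again close to the knockout libraries, although the groups did not overlap.

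The other genes of the F1 part and the central stalk were higher in all knockout libraries than in any wild-type library. Atp5e, the small epsilon subunit, had 17.5, 13.9 and 32.4 CPM in wild type and 41.3, 43.1 and 35.8 in knockout (0.91 ± 0.26, edgeR adjusted p = 0.132). Atp5c1, the gamma subunit that turns within the head, was at 73.6, 60.7 and 78.7 CPM and 104, 111 and 94.5 CPM (0.54 ± 0.15, edgeR adjusted p = 0.132). Atp5d, the delta subunit, showed 94.2, 108 and 116 and 136, 139.9 and 132 CPM (0.36 ± 0.14).

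The peripheral stalk, which holds the head still against the turning rotor, showed a median of 0.58 on the log2 scale (4 genes). Atp5h, subunit d (chromosome 11, 115415689 to 115419962, minus strand), was at 28.97, 27.4 and 31.1 CPM in wild type and 49.3, 44.2 and 45.1 in knockout, each group within a narrow range (0.66 ± 0.14, edgeR adjusted p = 0.0682). Atp5o, the oligomycin sensitivity conferral protein, had 35.04, 32.3 and 45.8 and 61.99, 65.7 and 54.9 CPM (0.69 ± 0.17, edgeR adjusted p = 0.0960). Exons of Atp5o overlap another annotated gene of the same symbol on the same strand, and how reads of that overlap were counted is not known. For Atp5f1, subunit b, the log2 fold change was 0.50 ± 0.16 without overlap. Atp5j, coupling factor 6, had overlapping groups and 0.31 ± 0.17; its exons overlap those of Gabpa on the opposite strand.

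Subunit c, which forms the rotor ring, is made from 3 genes that encode the same mature protein with different import signals. Atp5g3 (chromosome 2, 73908447 to 73911326, minus strand) was at 52.3, 42.8 and 88.5 CPM in wild type and 114, 137 and 107 in knockout (0.97 ± 0.23, edgeR adjusted p = 0.0965). Atp5g1 (chromosome 11, 96068852 to 96075670, minus strand) had 82.5, 99.7 and 98.4 CPM in wild type and 114, 137 and 110.3 in knockout, also without overlap but with a smaller difference (0.36 ± 0.15). The ratio of Atp5g3 to Atp5g1 CPM was 0.633, 0.430 and 0.899 in wild type and 1.01, 1.00 and 0.973 in knockout. Atp5g1 has a copy, Gm10039, of 99.8% identity, which held 5042 counts against 15822 for the gene. With it added, Atp5g1 was at 111, 133 and 129 CPM in wild type and 150.1, 178 and 144 in knockout. Atp5g2 was counted at only 0.436, 1.07 and 0.347 CPM in wild type and 0.657, 0.969 and 0.473 in knockout.

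Small membrane subunits of complex V that join its dimers had log2 fold changes between 0.19 and 0.64. Atp5j2, subunit f, was at 14.1, 11.6 and 16.97 CPM in wild type and 23.4, 24.8 and 18.3 in knockout without overlap (0.64 ± 0.19). The groups overlapped for Atp5mpl, Atp5k and Atp5l, at 0.58, 0.50 and 0.19. Atp5s, the gene related to coupling factor B, overlapped too (0.30 ± 0.34). Atpif1, which is outside the symbols chosen, encodes the protein that stops complex V from splitting ATP. It was at 39.6, 30.1 and 45.98 CPM in wild type and 48.2, 53.99 and 47.6 in knockout without overlap (0.37 ± 0.17, edgeR adjusted p = 0.328).

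**Figure D2:**
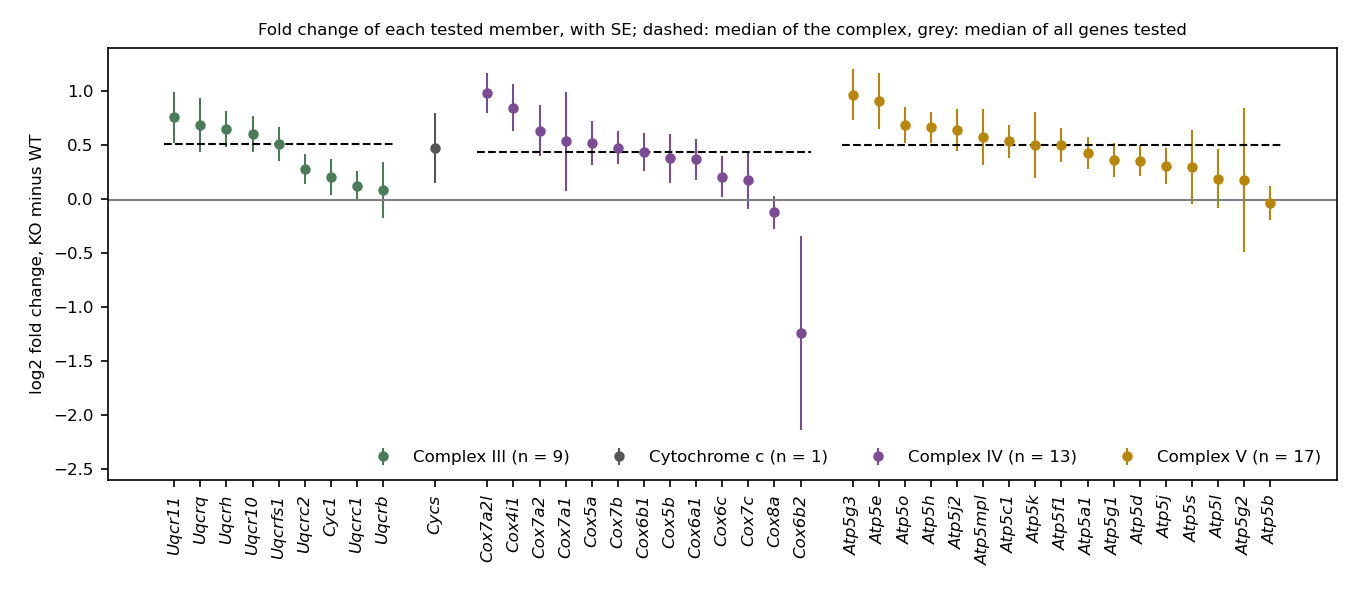
Log2 fold change (y axis, knockout minus wild type, with SE) of the 40 tested members by complex. Dashed lines are the medians of complexes III (0.51), IV (0.44) and V (0.50), and the grey line is the median of all genes tested; Cox6b2, Cox8a and Atp5b are the 3 genes below 0.

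Summed over all members, each complex was higher in each knockout library than in any wild-type library, and the ratio of the means was lowest for complex V. Complex III summed to 328, 311 and 353 CPM in wild-type libraries 1, 2 and 3 and to 440.2, 483 and 416 in knockout (1.35-fold in the means). Complex IV summed to 450.1, 429 and 607 CPM and 665, 733 and 630.0 CPM (1.36-fold). Here wild-type library 3 was close to the lowest knockout library. Complex V summed to 1719.9, 1779.9 and 1723 CPM and 2014, 2258 and 1941 CPM (1.19-fold). Without Atp5b its sums were 766, 772 and 955 CPM in wild type and 1169, 1297 and 1086 in knockout, a log2 ratio of 0.51 in place of 0.25. Atp5b made up 55.5, 56.7 and 44.5% of the complex V sum in wild type and 41.96, 42.6 and 44.04% in knockout. The sum of complex IV was 1.37, 1.38 and 1.72 times that of complex III in wild type and 1.51, 1.52 and 1.51 times in knockout, so that this ratio overlapped between groups. It was nearly constant across the knockout libraries.

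**Figure D3:**
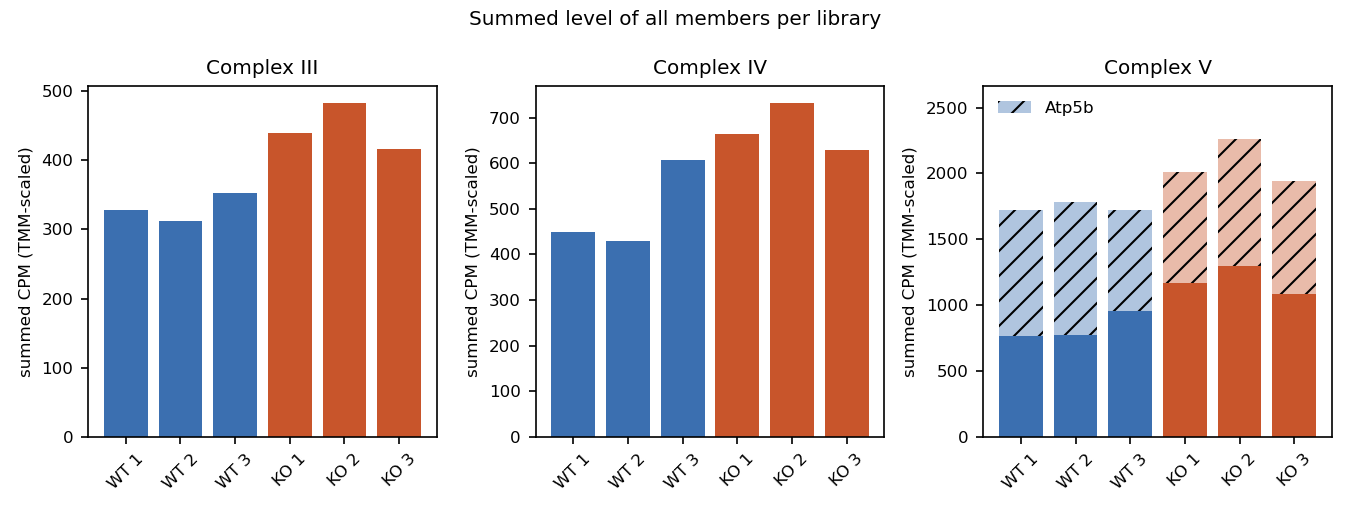
Summed TMM-scaled CPM (y axis) of all members of complexes III, IV and V in each library, wild type in blue and Apln knockout in orange; the hatched part of complex V is Atp5b. All 3 knockout bars exceed all wild-type bars in each panel, and the hatched part is 44.5% to 56.7% of the bar in wild type and 42.0% to 44.0% in knockout.

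Levels can be compared between genes only per length, here as CPM per kilobase of the principal coding transcript. Atp5b led all members at 475 CPM per kb in wild type and 463 in knockout. In complex V it was followed in wild type by Atp5g1 (157 CPM per kb), Atp5d (114) and Atp5a1 (110.1), with Atp5g3 next (85.7). The wild-type libraries of Atp5d, Atp5a1 and Atp5g3 overlapped, so that their order lies within the spread. In knockout Atp5g3 (168) was next after Atp5g1 (202) by its mean, and its libraries overlapped those of Atp5g1 and of Atp5a1. Its lowest knockout library was about level with the highest of Atp5d. In complex IV, Cox6a1 led (201 CPM per kb in wild type, 259.6 in knockout), ahead of Cox8a (129.8 and 119) and Cox4i1 (94.8 and 170.5), and the order of the last pair was opposite in the knockout libraries. In wild type that pair overlapped. In complex III, Uqcr10 had the highest mean (101 and 153 CPM per kb), with Uqcrh (80.6 and 127) and Uqcrq (75.4 and 121) next. The wild-type libraries of these genes overlapped, so that their order lies within the spread. In knockout the libraries of Uqcr10 overlapped those of Uqcrh, and those of Uqcrh overlapped those of Uqcrq. The core subunit Uqcrc1 was at 25.8 and 28.1 CPM per kb. Amplified RNA need not be covered evenly, so these orders hold for counted reads.

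**Figure D4:**
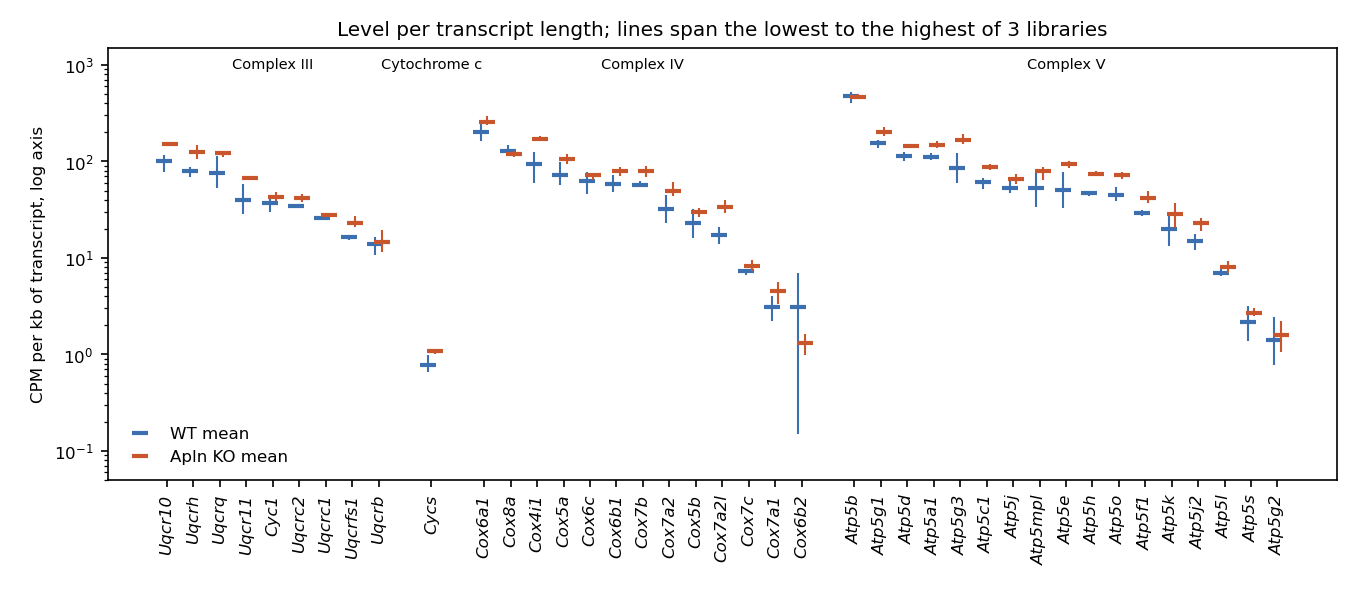
Mean level per kilobase of transcript (y axis, CPM per kb, log axis) of each tested member in wild type (blue) and Apln knockout (orange), with lines from the lowest to the highest of 3 libraries. Levels run from 0.774 CPM per kb (Cycs) to 475 (Atp5b) in wild type.

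Several of the lowest levels belonged to genes with near-identical copies elsewhere in the genome. Of the 42 members, 17 had at least 1 annotated copy of 95% identity or more over at least 100 nucleotides of coding sequence, most of them processed pseudogenes, and Atp5l had 9. For Cox7c, a small subunit of complex IV, the copy Gm12338 matched with no difference over 189 nucleotides and held 3241 counts against 624 for the gene itself. For Atp5l, subunit g of complex V, Gm10221 held 718 against 611, and for Atp5g2 the copy Gm10231 held 97 against 98. With the counts of copies added, Cox7c was at 24.3, 22.8 and 24.5 CPM in wild type and 30.6, 28.2 and 28.2 in knockout, without overlap, and its log2 fold change was 0.28 in place of 0.18. Atp5l then stood at 6.98, 6.20 and 9.11 and 9.61, 12.6 and 10.97 CPM, with 0.57 in place of 0.19. Atp5g2 had 0.53 in place of 0.18. Of the genes with larger differences, Atp5h (0.65), Atp5o (0.73) and Cox7a2l (0.98) kept about the same value. Still 0 members passed over all genes (23 at an unadjusted p under 0.05 by edgeR, against 15.2% of all genes in this fit; DESeq2 was not run on these sums). This alternative was chosen after seeing the data.

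The members are short transcripts, with a median length of 966.5 nucleotides against 3010 over all genes tested. Short transcripts were higher in the knockout libraries in general: genes under 1000 nucleotides had a median deviation from the gene mean of -0.14, -0.22 and -0.0077 on the log2 scale in wild-type libraries 1, 2 and 3 and 0.21, 0.16 and 0.16 in knockout. The members' own medians were -0.32, -0.42 and -0.01 and 0.19, 0.38 and 0.10. In both series wild-type library 3 was the highest of the wild-type libraries. With the trends with length and GC content taken out of each library, 35 of the 40 tested members had a positive log2 fold change. The length used was that of the longest annotated transcript. For Atp5g1 and Atp5l it was 4715 and 6310 nucleotides, where the principal coding transcripts have 596 and 544. Their corrected values were higher, 0.45 in place of 0.36 and 0.28 in place of 0.19, so the correction is uncertain for such genes. Cox7a2l (0.80), Atp5e (0.79), Atp5g3 (0.76) and Cox4i1 (0.73) had the largest corrected values, Uqcrb (-0.23) and Cox7c (-0.15) changed sign, and 0 members passed over all genes (17 at an unadjusted p under 0.05 by edgeR, against 11.8% of all genes in this fit; DESeq2 was not run with this correction).

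**Figure D5:**
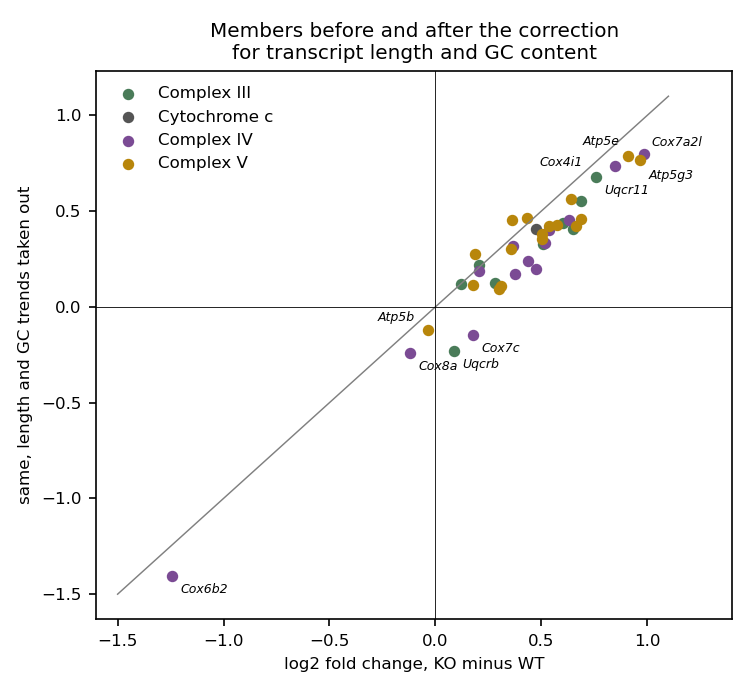
Log2 fold change of the 40 tested members, knockout minus wild type (x axis), against the same after per-library trends with transcript length and GC content were taken out (y axis); the grey line marks equal values and colours mark the complex. Most points lie below the line and above 0, and Cox7a2l, Atp5e, Atp5g3 and Cox4i1 are at the upper end by both measures.

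The partners of these subunits had differences of various sizes. The mitochondrially encoded cytochrome b gene mt-Cytb, of complex III, was at 3133, 2791 and 2593 CPM in wild type and 4982, 6466 and 3930.4 in knockout (0.85 ± 0.19, edgeR adjusted p = 0.0798). For mt-Co1, the catalytic subunit of complex IV, the groups overlapped (9119.9, 8799 and 7155 against 10795, 11303 and 8857 CPM; 0.30 ± 0.17). The DESeq2 Wald test called mt-Cytb higher but not mt-Co1, where it called 1.98% of all genes higher. mt-Co3 had 1 count in all, and the cause of this was not tested. Of the 6 mitochondrially encoded subunits looked for, 3 were in the gene count table. The absent ones were mt-Co2, mt-Atp6 and mt-Atp8, so complex V has no mitochondrially encoded value here. The share of mitochondrial ribosomal RNA in a library moved with the groups as well, at 57.5, 52.1 and 46.9% in wild type and 60.00, 61.9 and 58.7% in knockout, and its part in the members' values was not tested. Assembly factors insert cofactors and join subunits but are not part of the finished enzyme. Their medians were 0.30 over 8 tested genes for complex III, 0.18 over 23 for complex IV and 0.19 over 5 for complex V. The edgeR test over all genes called 0 of them. At an unadjusted p under 0.05 by edgeR 5 were higher and 2 lower, against 7.53% and 7.66% of all genes. The DESeq2 Wald test called 1, Coa3, where it called 1.98% of all genes higher. Of the complex IV factors, Coa3 was at 8.29, 5.85 and 11.7 CPM in wild type and 15.99, 18.7 and 14.3 in knockout, and Cox18, which inserts a mitochondrially made subunit into the membrane, went the other way at 5.32, 4.89 and 3.28 and 2.11, 2.12 and 2.74 CPM. In complex V, Fmc1 had 7.22, 7.02 and 8.07 and 12.8, 10.8 and 10.3 CPM.

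Complex II, which feeds electrons to the same ubiquinol pool without pumping protons, had a median of 0.11 over 4 genes. Sdhd was at 61.7, 50.2 and 44.4 CPM in wild type and 80.7, 92.1 and 68.4 in knockout. The groups overlapped for Sdha, Sdhb and Sdhc. The edgeR test over all genes called 0 of the complex II genes. The DESeq2 Wald test called 1, Sdhd, higher, where it called 1.98% of all genes higher. Genes listed by symbol as complex I subunits had a median of 0.55 over 36 tested genes. Of these, 20 did not overlap and were higher in knockout, against 11.3% of all genes. Membership was by symbol alone, so that Ndufa4 (0.57, without overlap) counts here whatever complex its product belongs to. At an unadjusted p under 0.05 by edgeR 22 were higher, against 7.53% of all genes, and 0 lower, against 7.66%. The edgeR test over all genes called 0. The DESeq2 Wald test called 10 higher, where it called 1.98% of all genes higher. Among 13 regulators of mitochondrial biogenesis the median was -0.10, and 0 passed the edgeR test over all genes or the DESeq2 Wald test. At an unadjusted p under 0.05 by edgeR 0 were higher and 1 lower, against 7.53% and 7.66% of all genes. The coactivator gene Pprc1 was at 21.03, 25.9 and 20.2 CPM in wild type and 14.9, 17.03 and 16.6 in knockout. Its relative Ppargc1b had 11.5, 7.75 and 10.1 and 4.92, 6.83 and 9.03 CPM, with overlap. The third of these coactivator genes, Ppargc1a, was at 7.58, 10.1 and 10.2 CPM in wild type and 11.3, 11.8 and 10.6 in knockout without overlap (0.27 ± 0.20). No test of the difference between complexes, or between these lists and the members, was made.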

How the data were processed

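RNA from 3 wild-type and 3 Apln-/- samples of sorted crypt epithelium was sequenced. Per the labels' protocols, amplification used Ovation Pico WTA V2 and library preparation Nextera DNA Flex. The authors deposited raw read counts per gene, not normalized; the submitters' processing notes list STAR 2.6.1, HTSeq and mm10. Not given in the sources used here are the annotation release, the strand setting and the handling of reads that map to several places. Symbols, coordinates and transcripts came from GENCODE M21 of the same build, which matched 28551 of 28564 identifiers. In R 4.3.3 with edgeR 4.0.16, filterByExpr (count minimum 10, total minimum 15) left 15122 genes, and scaling was by TMM. Knockout was set against wild type with glmQLFit and glmQLFTest and no covariate; Benjamini-Hochberg adjustment covered all genes tested. SEs are the absolute log2 fold change divided by the square root of F. CPM are TMM-scaled, and log2 CPM used a prior count of 2. The length per kilobase is that of the APPRIS principal coding transcript. Length and GC trends of the longest transcript were fitted per library with mgcv 1.9.3 and entered as offsets. Coding sequences were compared with annotated transcripts by BLAST+ 2.17.0. The test was also run on simulated counts, in which no library was set apart from its group as wild-type library 3 was. No 2 libraries agreed within counting noise (chi-square per degree of freedom 7.6 to 94.8).

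The members, lists, motifs and tests were chosen with earlier results of these data known. Named by rule are, per complex, the 5 tested members of lowest p, the 2 of lowest fold change and the 2 of highest level per length, with Cycs, the tissue isoforms and their partners, the subunit c genes, the ATP synthase inhibitor gene and up to 2 genes per other list; the remaining members are named because all are accounted for. Alternatives were other scalings, filters, DESeq2 1.42.0, a replicate block, leaving out the 5 most abundant entries or each library, the length and GC correction and, added after seeing the data, counts of copies and sums without the most abundant member.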

Additional observations from a re-analysis of the deposited data

How the results depend on the processing

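The count of 26 genes was 1 with DESeq2 size factors, with upper-quartile scaling, with the length and GC correction and without the 5 most abundant entries. It was 629 with no filter on low counts, 117 with at least 1 CPM in 3 libraries and 581 with the DESeq2 Wald test. The count of 0 members was 11, 2 and 10 with the same 3 alternatives. The numbers of the titles differ from those of the descriptions for knockout libraries 2 and 3. By the titles, same-numbered libraries had correlations of deviations of only 0.011 to 0.057. However, 5 of 6 libraries correlated best with their own number, so whether the numbers pair the samples is not settled. The main fit took no pairing. With a replicate block 173 genes and 3 members were called. Leaving out each library in turn gave 0 to 358 genes and 0 to 11 members, the highest of both without wild-type library 3; without any other library 0 or 1 genes and 0 members were called. The median of complex III was 0.33 and its summed log2 ratio 0.31 with the length and GC correction, and the summed log2 ratio of complex V was 0.51 without Atp5b. All other medians and sums of the 3 complexes moved by less than 1 SD of the replicates in the alternatives run. Of the genes named by rule, 4 changed sign in these, of which 3 had fold changes close to 0: Uqcrb was at -0.23 with the length and GC correction, and from -0.17 to 0.23 with a library left out (-0.17 without knockout library 2, -0.06 without wild-type library 3). Likewise Atp5b ranged from -0.14 to 0.036 (0.036 without wild-type library 2, 0.0011 without knockout library 1), Atp5g2 from -0.12 to 0.82 (-0.02 without wild-type library 1, -0.10 without wild-type library 3, -0.12 without knockout library 2) and the fourth, Cox6b2, from -1.81 to 0.11 (0.11 without wild-type library 1). The cause of these changes was not tested. Atp5g2, Cox6b2 and Cycs had few counts, which limits the precision of their values.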
